A study of Mus musculus with 12 samples.

Results

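The genes described here are 10 genes of antigen presentation by the major histocompatibility complex (MHC): the class II chains H2-Aa, H2-Ab1 and H2-Eb1, the class II chaperone Cd74, the class II transactivator Ciita, the class I heavy chains H2-K1 and H2-D1, the class I light chain B2m, the peptide transporter subunit Tap1 and the class I transactivator Nlrc5. They were chosen by symbol, all 10 were found among the 55573 genes of the count table, and all 10 passed the filter on low counts that left 19174 genes for testing. RNA came from fibroblasts of C57BL/6 mouse embryos at day 13.5 (MEFs), engineered so that doxycycline turns on Oct4, Sox2, Klf4 and cMyc (OSKM), the factors that can reprogram a fibroblast into a pluripotent stem cell. Cells of 3 clones were grown without doxycycline (MEF) or with 1 µg/ml doxycycline (OSKM), each without or with 2 µM vitamin B12, and collected at 72 h. There were thus 4 groups (MEF, OSKM, and each of them with B12, written MEF+B12 and OSKM+B12) of 3 libraries, 1 from each clone, and 12 libraries in all. Only the induced cells received doxycycline, so the drug and the factors cannot be told apart. Titles of clone 1 libraries show a later year than the others, so clone 1 and that year cannot be told apart either.

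MHC class I molecules sit on nearly all nucleated cells and show CD8 T cells peptides made in the cytosol. The proteasome cuts these peptides, the Tap1-Tap2 transporter carries them into the endoplasmic reticulum, and a heavy chain paired with B2m takes them to the surface. MHC class II molecules are made mainly by macrophages, dendritic cells and B cells, carry peptides from endosomes to CD4 T cells, and are kept from binding other peptides by Cd74 until they reach those endosomes. Nlrc5 and Ciita are the related coactivators that switch on class I and class II genes, and interferon-gamma induces both.

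RefSeq promoter windows on GRCm38.p6, from 250 bases before to 50 bases after the start of transcription, were at hand for 6 of the 10 genes (H2-K1, H2-D1, B2m, Tap1, H2-Aa and H2-Eb1). The stretch just before the start is printed for H2-K1 and B2m, a class I gene that passed the induction test below and one that did not, and for H2-Aa and H2-Eb1 as class II genes. Capitals mark matches on either strand to CCAAT (written ATTGG on the other strand), AGCAAC (the core of the class II X box), GAAANNGAA and GAANNGAAA (parts of an interferon response element), TTCNNNGAA (a STAT site) and GGGATTCCC (an NF-kB site of class I genes), where N is any base. GAANNGAAA was added to the search after the sequences were seen. The stretches printed directly below, which end before the start, overlap no exon of the GENCODE annotation on the same strand.
H2-K1, chr17:34000348-34000487, minus strand: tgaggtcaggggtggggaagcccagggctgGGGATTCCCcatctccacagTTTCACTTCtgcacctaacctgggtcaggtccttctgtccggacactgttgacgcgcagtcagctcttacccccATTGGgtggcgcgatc
B2m, chr2:122147532-122147685, plus strand: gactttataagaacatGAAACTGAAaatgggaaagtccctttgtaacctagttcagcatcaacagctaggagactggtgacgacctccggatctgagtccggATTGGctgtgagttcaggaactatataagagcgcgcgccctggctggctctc
H2-Aa, chr17:34287824-34287923, minus strand: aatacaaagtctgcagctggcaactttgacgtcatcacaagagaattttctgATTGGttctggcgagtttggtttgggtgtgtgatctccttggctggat
H2-Eb1, chr17:34305747-34305866, plus strand: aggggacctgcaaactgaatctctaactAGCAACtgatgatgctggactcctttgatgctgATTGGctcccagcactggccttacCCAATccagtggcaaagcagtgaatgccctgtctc

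CCAAT was found in all 6 windows and in 37.9% of 27025 promoters of the same length. GGGATTCCC was found in the windows of H2-K1 and H2-D1 and in 0.37% of all promoters, and GAANNGAAA in the same pair and in 7.56% of all. GAAANNGAA was found in the B2m window and in 8.57% of all promoters, AGCAAC in the H2-Eb1 window and in 14.8% of all, and TTCNNNGAA in none of the 6 and in 8.47% of all. H2-K1 and H2-D1 hold the NF-kB and interferon letters in the same 30-base arrangement, shown for both because they are the class I heavy chains that passed the induction test. Counted from 1 at the 5′ end, the H2-K1 and H2-D1 stretches differ by A18T, and the H2-D1 stretch lies within an annotated first exon of H2-D1. Only exact letters counted as a match, so GGCAAC in the H2-Aa stretch, which differs from AGCAAC in its first letter, is not marked. A match or its absence describes letters in these windows and not binding.
H2-K1, chr17:34000429-34000458, minus strand: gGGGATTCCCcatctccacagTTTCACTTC
H2-D1, chr17:35262923-35262952, plus strand: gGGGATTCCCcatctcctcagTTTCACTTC

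The libraries held 56971244 to 79236795 counts. The clone was kept as a block in the test, the quasi-likelihood F test of edgeR with Benjamini-Hochberg adjustment over all tested genes and a threshold of 0.05. Of the 4 induced factors, 3 were higher in OSKM than in MEF averaged over both B12 states and 1 was lower. Pou5f1 (Oct4) differed by 5.96 ± 0.155 (log2 fold change ± SE, adjusted p = 1.14e-08), Sox2 by 4.22 ± 0.29 (adjusted p = 7.13e-05) and Myc by 0.88 ± 0.17 (adjusted p = 0.0206), while Klf4 differed by -0.12 ± 0.0318 (adjusted p = 0.0452). Clone 3 had the lowest factor levels after induction: Pou5f1 stood at 19.35, 18.48 and 2.86 CPM in OSKM for clones 1, 2 and 3 against 0.4677, 0.3795 and 0 CPM in MEF, and Myc at 53.4, 43.97 and 20.05 CPM against 22.5, 16.4 and 18.6 CPM. CPM here are counts scaled by TMM factors to a common library total of 1e6. Counts per gene do not separate transcripts of an introduced factor from those of the cells' own gene. Klf4 stood at 139, 143 and 124 CPM in MEF for clones 1, 2 and 3, far above Pou5f1 in OSKM. Whether the introduced Klf4 was expressed thus cannot be read from its difference. The fibroblast label held as well, with 9 of 9 fibroblast markers tested and summed at 85010 to 136500 CPM. Macrophage markers were present in every library, with 14 of 14 above a mean of 1 CPM and a sum of 1361 to 3450 CPM. Averaged over both states, 12 of the 14 were higher with B12, beside 3.46% of all genes. The number was 12 without clone 1 (517 of 19102 genes higher) and 8 without clone 3 (313 of 19231). It was 1 without clone 2 (34 of 19314 genes higher) and 1 without the clone block (90 of 19174). Dendritic cell markers summed to 1.76 to 3.86 CPM with Cd209a at 0 counts, B cell markers to 0.235 to 0.762 CPM, and T and NK cell markers to 0.147 to 0.758 CPM with Cd3e, Cd3g, Cd8a and Ncr1 at 0. In bulk RNA, fewer cells of a type and less RNA per cell cannot be told apart. The clones are separate cultures, each grown in every group. With the clone as a block, differences in level between clones are set aside, so p-values measure how group differences vary between 3 clones.

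The cultures held abundant class I RNA and very little class II RNA. Per kilobase of exon, which allows genes to be compared, the mean level over the 12 libraries was 909 ± 124 CPM/kb (SD) for B2m, 192 ± 31.02 for H2-D1 and 121 ± 20.8 for H2-K1. Tap1 stood at 14.7 ± 2.17 CPM/kb and Nlrc5 at 1.77 ± 0.278. The class II genes came last, with Cd74 at 0.916 ± 0.135, H2-Eb1 at 0.291 ± 0.0831, H2-Ab1 at 0.218 ± 0.0617 and H2-Aa at 0.0959 ± 0.0727 CPM/kb, and Ciita at 0.0451 ± 0.0192. The ranges of neighbouring genes over the 12 libraries did not touch between B2m and H2-D1, between H2-K1 and Tap1, between Tap1 and Nlrc5, between Nlrc5 and Cd74, or between Cd74 and H2-Eb1. They overlapped between H2-D1 and H2-K1 and along the order from H2-Eb1 to Ciita. The summed CPM of H2-K1, H2-D1 and B2m was 385 to 713 times that of the 4 class II genes in the same library.

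**Figure D1:**
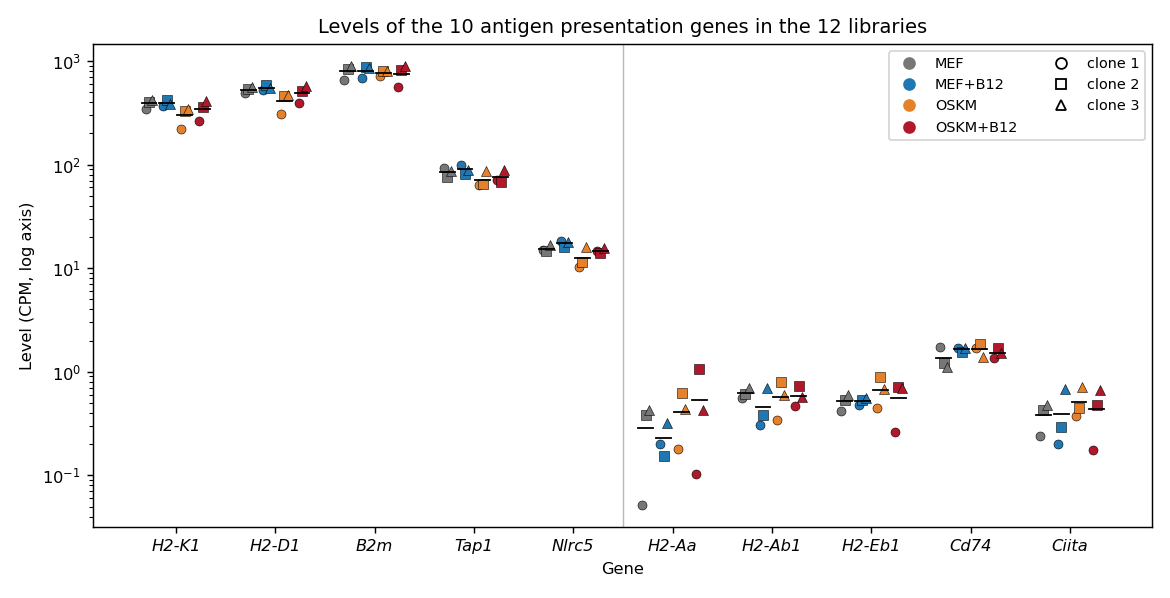
Levels of the 10 antigen presentation genes in CPM on a log axis, 1 point per library, coloured by group, with the clone as the symbol and a bar at each group mean. The class I genes left of the line lie at 10.2 CPM or more, and the class II genes and Ciita right of it between 0.0520 and 1.83 CPM.

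The first comparison asks what changes in fibroblasts in the first days of factor expression. Averaged over both B12 states, 4 of the 10 genes were lower in OSKM than in MEF and 0 were higher: H2-K1, H2-D1, Tap1 and Nlrc5, each by 0.26 to 0.30 on the log2 scale. This averaged test treats a clone's differences without and with B12 as independent, although both come from the same clone. Where a clone responds alike in both media, the averaged p-values may be too small. The comparison of B12 averaged over both states has the same limit. Of all tested genes 9.73% were called in this comparison, 5.26% as lower and 4.46% as higher. That is 1009 lower and 856 higher, and 632 lower and 1496 higher when library totals replaced TMM. The class I light chain B2m, the 4 class II genes and Ciita did not pass the test. Without B12 alone, 0 of the 10 passed with edgeR (4 at an unadjusted p under 0.05), where 0.0730% of all genes did. With B12 alone 0 of the 10 passed with edgeR (2 at an unadjusted p under 0.05), where 0.104% did. DESeq2 called 2 of the 10 without B12, H2-K1 and H2-D1, where it called 487 of 19174 genes, 288 of them lower. With B12 DESeq2 called 0 of the 10, where it called 416 of 19174 genes.

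H2-K1 encodes the K heavy chain, one of the classical class I molecules of the mouse. It stood at 345.5, 405 and 418 CPM in MEF for clones 1, 2 and 3, and at 221, 331 and 339.8 CPM in OSKM. With B12 it stood at 363.5, 418 and 384.5 CPM in MEF+B12 and at 265, 362 and 408 CPM in OSKM+B12. Without B12 the highest OSKM library lay below the lowest MEF library, while with B12 the groups overlapped through clone 3. The averaged difference was -0.30 ± 0.067 (log2 fold change ± SE, adjusted p = 0.0262), a level 0.811 times that of MEF.

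H2-D1, the D heavy chain, followed H2-K1 closely. It stood at 485, 535 and 562 CPM in MEF and at 307, 456 and 466 CPM in OSKM for clones 1, 2 and 3. With B12 the values were 522, 585 and 542 CPM in MEF+B12 and 394, 508 and 566 CPM in OSKM+B12. The groups were again separate without B12 and overlapped with it. The averaged difference was -0.28 ± 0.067 (adjusted p = 0.0301). Over the 12 libraries the log2 levels of H2-K1 and H2-D1 had a Pearson r of 0.989, and 0.986 after subtraction of each clone's mean. The genes share sequence, since 22.8% of the 31-base words of H2-K1 and 26.7% of those of H2-D1 occur in transcripts of other genes. The paper states no setting for reads that align to several genes. Shared reads may thus be divided among class I genes or counted for more than 1 of them, and each gene's own value is uncertain to that extent. The part of shared reads in this correlation and in the calls of H2-K1 and H2-D1 was not tested.

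Tap1 encodes a subunit of the transporter that feeds peptides to class I molecules. It stood at 92.8, 76.4 and 87.3 CPM in MEF and at 63.4, 64.7 and 85.7 CPM in OSKM for clones 1, 2 and 3. With B12 it stood at 99.6, 81.9 and 88.3 CPM in MEF+B12 and at 71.15, 67.2 and 88.9 CPM in OSKM+B12. Clones 1 and 2 were lower after induction in both media and clone 3 stayed within the MEF range. The averaged difference was -0.26 ± 0.070 (adjusted p = 0.0417). Only 0.825% of the 31-base words of Tap1 occur elsewhere. The immunoproteasome gene Psmb9 overlaps the start of Tap1 on the other strand, and the counting used strand.

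Nlrc5 is the coactivator of class I genes. It stood at 15.0, 14.5 and 16.7 CPM in MEF and at 10.2, 11.4 and 15.96 CPM in OSKM for clones 1, 2 and 3. With B12 it stood at 18.2, 16.2 and 17.9 CPM in MEF+B12 and at 14.5, 14.1 and 15.7 CPM in OSKM+B12. Here the groups were separate with B12 and overlapped without it. The averaged difference was -0.27 ± 0.072 (adjusted p = 0.0395), and the difference was below 0 in 3 of 3 clones in both media.

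B2m encodes the light chain that every class I heavy chain needs. It stood at 657.5, 835 and 894 CPM in MEF and at 716, 803 and 795 CPM in OSKM for clones 1, 2 and 3, and at 676.5, 876 and 858 CPM in MEF+B12 and 558, 817 and 889 CPM in OSKM+B12. The groups overlapped in both media, and the averaged difference was -0.07 ± 0.057 (adjusted p = 0.494). Whether the B2m difference departs from that of the heavy chains was not tested.

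The 4 calls were lost when clone 1 or clone 2 was left out, where 0 of all tested genes were called lower. In the libraries of the earlier year alone, that is without clone 1, 0 of the 10 genes passed, with H2-K1 at -0.18, H2-D1 at -0.16, Tap1 at -0.14 and Nlrc5 at -0.20 (edgeR, adjusted p = 0.262 to 0.313). Without clone 2, 0 passed with H2-K1 at -0.33 and Nlrc5 at -0.27 (edgeR, adjusted p = 0.426 for all 4). Without only the OSKM library of clone 1, which held the lowest H2-K1, H2-D1, Tap1 and Nlrc5 levels, the 4 adjusted p-values from edgeR were 0.0524 to 0.0781. The later year holds 1 clone and gives no test. Without the clone block 0 of the 10 passed (edgeR, adjusted p = 0.296 to 0.394), and with library totals in place of TMM H2-K1 and H2-D1 passed and Tap1 and Nlrc5 did not (adjusted p = 0.0615 and 0.0603). The direction of these 4 genes was down in each of 10 alternative settings. In the same comparison 4 of 9 fibroblast markers were lower, and of 14 macrophage markers 3 were lower and 1 was higher. Of all genes 5.26% were lower and 4.46% higher. The number of macrophage markers lower was 1 with library totals (632 of 19174 genes lower), 6 with no filter (1352 of 33090) and 5 without clone 3 (1626 of 19231). It was 0 without clone 1, without clone 2, without the OSKM library of clone 1 or without the clone block. Summed macrophage levels were 1361 to 2605 CPM in MEF and 1397 to 2408 CPM in OSKM, and with B12 2054 to 3450 CPM in MEF+B12 and 2153 to 2818 CPM in OSKM+B12. Their part in the class I values was not tested.

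**Figure D2:**
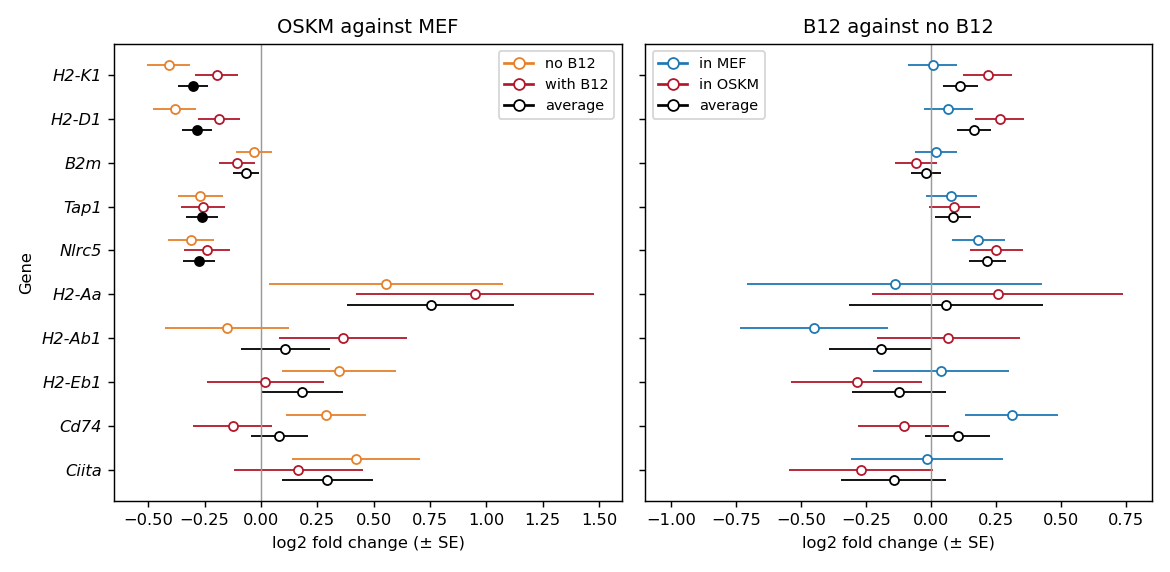
Fitted log2 fold changes with their SE for the 10 genes, for induction (left) and for B12 (right), each in both states and averaged. Filled points passed the threshold, which H2-K1, H2-D1, Tap1 and Nlrc5 did in the averaged induction comparison, and H2-Aa has the widest errors in all 6 comparisons shown.

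The response to induction was then compared between clones, since each clone gave an induced and an uninduced library in both media. The F test called 1 of the 10 genes, Tap1 (edgeR, adjusted p = 0.0178), and 2.15% of all genes. Without B12 the Tap1 difference, OSKM minus MEF in log2 CPM, was -0.55 in clone 1, -0.24 in clone 2 and -0.03 in clone 3, and with B12 it was -0.485, -0.285 and 0.01. H2-K1 showed -0.65, -0.29 and -0.30 without B12 and -0.46, -0.21 and 0.08 with it, and its clone test gave an adjusted p of 0.0611. H2-D1 was alike, at -0.66, -0.23 and -0.27 without B12 (clone test, edgeR, adjusted p = 0.0786). For Tap1, H2-K1 and H2-D1 clone 1 had the lowest difference in both media. B2m gave 0.12, -0.06 and -0.17 without B12 and -0.28, -0.10 and 0.05 with it, so that clone 1 was its highest clone in one medium and its lowest in the other, and B2m did not pass the clone test (edgeR, adjusted p = 0.995). The same clone test called the induced factors Myc (adjusted p = 0.000653) and Sox2 (adjusted p = 0.0156) but not Pou5f1 or Klf4 (adjusted p = 0.352 and 0.963). Clone 3, with the smallest Tap1 difference, was also the clone with the lowest Pou5f1, Sox2 and Myc levels after induction, with Sox2 at 15.5, 13.3 and 2.33 CPM in OSKM for clones 1, 2 and 3. The part of the factor levels in the class I differences was not tested. DESeq2 and the fit with no filter on low counts each called H2-K1 and H2-D1 beside Tap1, where they called 597 of 19174 and 1257 of 33090 genes. This test uses the libraries with and without B12 of 1 clone as its spread and says nothing of other embryos.

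**Figure D3:**
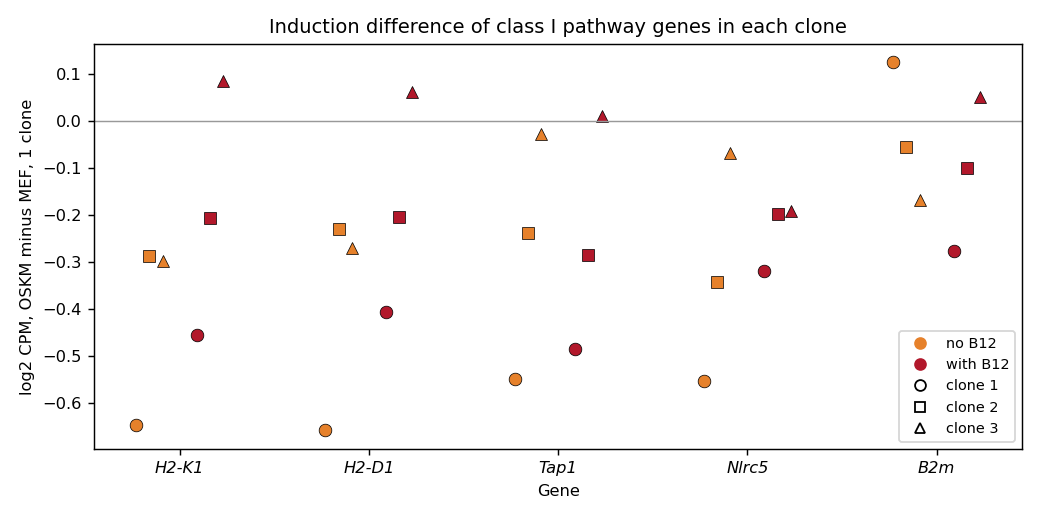
Difference in log2 CPM between the OSKM and the MEF library of the same clone for 5 class I pathway genes, without and with B12, with the clone as the symbol. Clone 1 lies lowest for H2-K1, H2-D1 and Tap1 in both media, and clone 3 lies at 0.01 to 0.08 for these genes with B12.

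The class II genes had few counts, which set the precision. H2-Aa, the alpha chain of I-A, had 3 to 66 counts per library, and 3 counts carry an exact Poisson interval of 0.619 to 8.77 counts at 95%, for counting error only. Its levels were 0.0520, 0.3795 and 0.426 CPM in MEF and 0.178, 0.622 and 0.436 CPM in OSKM for clones 1, 2 and 3, and 0.202, 0.155 and 0.324 CPM in MEF+B12 and 0.103, 1.06 and 0.430 CPM in OSKM+B12. The groups overlapped throughout and the highest library was OSKM+B12 of clone 2. The averaged induction difference was 0.75 ± 0.37 (edgeR, adjusted p = 0.222).

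H2-Ab1, the beta chain that pairs with H2-Aa, stood at 0.554, 0.617 and 0.694 CPM in MEF and at 0.341, 0.795 and 0.590 CPM in OSKM, with 21 to 47 counts per library. With B12 it stood at 0.3035, 0.379 and 0.691 CPM in MEF+B12 and at 0.4705, 0.724 and 0.568 CPM in OSKM+B12. The clones did not move one way, and the averaged difference was 0.11 ± 0.198 (edgeR, adjusted p = 0.773). H2-Eb1, the beta chain of I-E, stood at 0.416, 0.538 and 0.599 CPM in MEF, 0.445, 0.882 and 0.680 CPM in OSKM, 0.477, 0.534 and 0.559 CPM in MEF+B12 and 0.265, 0.708 and 0.691 CPM in OSKM+B12. Its averaged difference was 0.18 ± 0.181 (edgeR, adjusted p = 0.566), with the groups overlapping in both media.

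Cd74, the invariant chain that fills the class II groove during transport, was the most abundant class II gene, with 70 to 118 counts per library. It stood at 1.715, 1.22 and 1.10 CPM in MEF, 1.71, 1.83 and 1.385 CPM in OSKM, 1.705, 1.57 and 1.68 CPM in MEF+B12 and 1.35, 1.69 and 1.51 CPM in OSKM+B12. All 12 libraries thus lay between 1.10 and 1.83 CPM, and the averaged induction difference was 0.08 ± 0.125 (edgeR, adjusted p = 0.723). Ciita, the master coactivator of class II genes, stood at 0.2425, 0.427 and 0.473 CPM in MEF, 0.371, 0.4495 and 0.705 CPM in OSKM, 0.202, 0.293 and 0.677 CPM in MEF+B12 and 0.1765, 0.4825 and 0.661 CPM in OSKM+B12. It had 12 to 55 counts per library, the clones differed more than the groups did, and the averaged difference was 0.29 ± 0.202 (edgeR, adjusted p = 0.390).

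The second comparison asks what B12 supplementation changes. None of the 10 genes passed the test with B12, in OSKM (3 at an unadjusted p under 0.05, where 1.06% of all genes were called), in MEF (0 at an unadjusted p under 0.05, 1.38% of all genes called) or averaged over both states (2 at an unadjusted p under 0.05, 3.84% of all genes called, 3.46% as higher). DESeq2 also called 0 of the 10 in each of the 3. The interaction of B12 with induction called 0 of the 10 genes and 0% of all genes, with 0 of the 10 at an unadjusted p under 0.05 and 0 by DESeq2. The averaged B12 differences closest to the threshold were those of Nlrc5, at 0.21 ± 0.072 (edgeR, adjusted p = 0.158), and H2-D1, at 0.16 ± 0.067 (adjusted p = 0.266). In OSKM, H2-K1 differed by 0.22 ± 0.095 and H2-D1 by 0.26 ± 0.095, with B12 above no B12 in 3 of 3 clones for both (edgeR, adjusted p = 0.493 and 0.373). B2m stood at -0.02 ± 0.057 averaged over both states (edgeR, adjusted p = 0.903).

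Class II RNA was compared with the macrophage markers, since macrophages are a usual source of it. The 4 class II genes summed to 2.74, 2.75 and 2.82 CPM in MEF and to 2.69, 2.63 and 3.25 CPM in MEF+B12 for clones 1, 2 and 3, and to 2.67, 4.13 and 3.09 CPM in OSKM and 2.19, 4.18 and 3.20 CPM in OSKM+B12. The 14 macrophage markers were higher with B12 in each of the 3 clones and in both states when summed, by 0.23 to 0.75 on the log2 scale, against -0.285 to 0.20 for the class II sum. Lyz2 was the largest part of the macrophage sum, at 739 to 1759 CPM. Averaged over both states 13 of the 14 markers lay above 0 with B12, while Cx3cr1 was lower in all 6 pairs. Per 1000 CPM of macrophage markers there were 1.55 ± 0.513 CPM of class II RNA (SD, n = 3) in MEF and 1.10 ± 0.424 in MEF+B12, and 2.00 ± 0.804 in OSKM and 1.29 ± 0.447 in OSKM+B12. The ratio was thus lower with B12 in all 6 pairs of libraries of the same clone and state, and this was not tested beyond the values given.

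**Figure D4:**
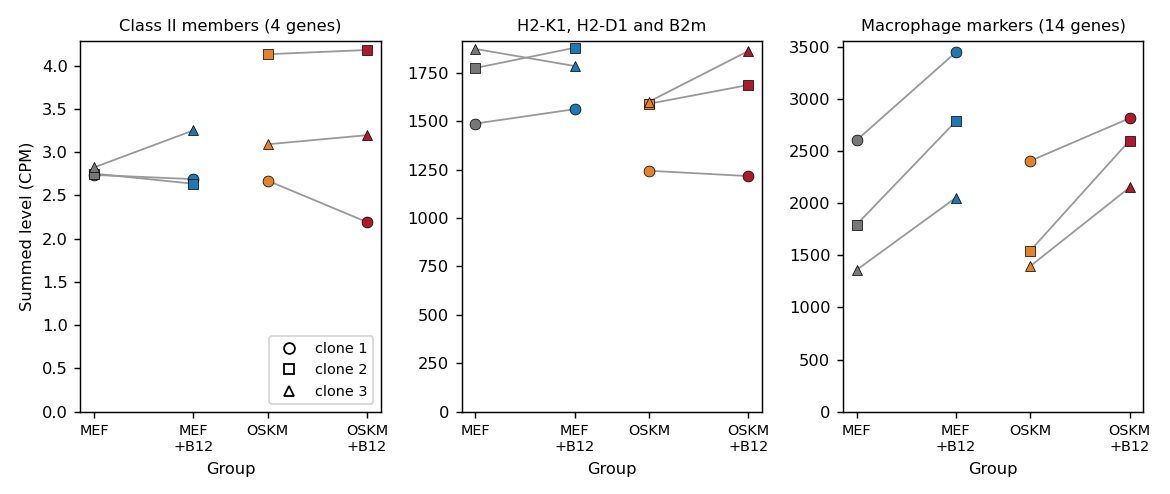
Summed CPM of the 4 class II genes, of H2-K1, H2-D1 and B2m, and of 14 macrophage markers, with a line joining the libraries of the same clone without and with B12 and each axis starting at 0. The macrophage sum is higher with B12 in all 6 pairs, while the class II sum moves between -0.285 and 0.20 on the log2 scale.

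The rest of the class I route was then described from a list. Of 25 listed genes, all tested, 7 were lower in OSKM averaged over both B12 states and 0 were higher, beside 5.26% of all genes lower, and the list's median log2 fold change was -0.207 against -0.0028 for all tested genes. The nonclassical class I gene H2-Q4 had the largest difference past the threshold, at -0.48 ± 0.095 (adjusted p = 0.0214). Psmb8, a catalytic subunit of the immunoproteasome, stood at -0.27 ± 0.064 (adjusted p = 0.0302). Tapbp, which bridges class I molecules to the transporter, stood at -0.26 ± 0.055 (adjusted p = 0.0235) and Tap2, the partner subunit of Tap1, at -0.25 ± 0.063 (adjusted p = 0.0342). H2-Q4 shares 38.4% of its 31-base words with other genes, so its value is uncertain. These 4 genes were also the ones called when the OSKM library of clone 1 was left out, and 0 were called without clone 1, without clone 2 or without the clone block. The count was 4 with library totals in place of TMM (without Tap2, Psmb9 and H2-T23), 10 with DESeq2 and 12 with no filter on low counts. Of all genes, 632 of 19174 were lower with library totals, 1379 of 19174 with DESeq2 and 1352 of 33090 with no filter. Without clone 1, without clone 2 or without the clone block, 0 of all genes were called lower.

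**Figure D5:**
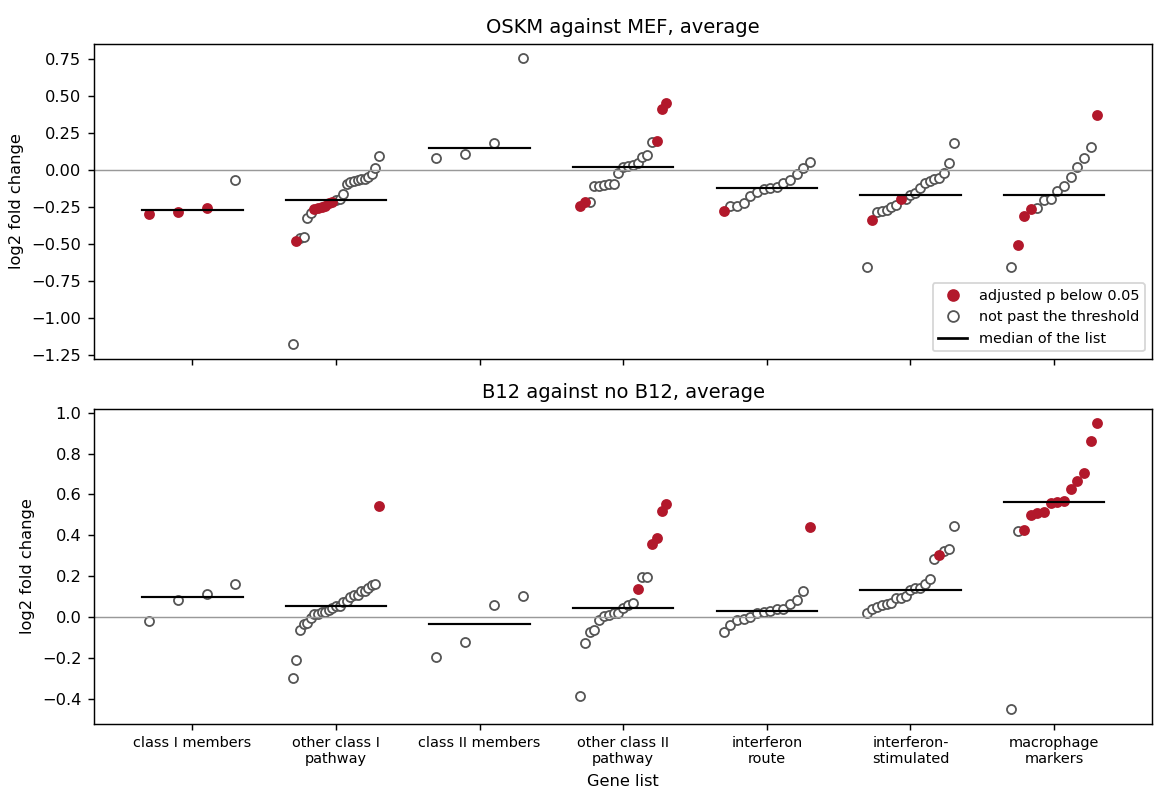
Fitted log2 fold changes of every tested gene of each list, averaged over both B12 states for induction (top) and over both states for B12 (bottom), with the list's median as a bar and genes past the threshold filled. In the class I lists all genes past the threshold in the top panel lie below 0, and in the bottom panel 12 of 14 macrophage markers and 0 class I or class II members pass.

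With B12 the class I list gave 1 gene higher, H2-T24, at 0.54 ± 0.117 (averaged, adjusted p = 0.0253), and a median of 0.052. A count of 1 in 25 is near the background of 3.46% of all genes higher. H2-T24 is a nonclassical class I gene, the count was 2 with library totals, and leaving out any of the clones, the clone block, or the OSKM library of clone 1, left 0 genes of this list called.

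Of 22 other genes of the class II route 19 were tested, and H2-Eb2 had 0 counts in every library while H2-Oa and H2-Ob had 12 and 6 counts in all. With induction 3 of the 19 were higher and 2 lower (median 0.018), beside 4.46% of all genes higher and 5.26% lower: the costimulator Cd40 at 0.45 ± 0.12 (adjusted p = 0.0418), the ubiquitin ligase March1, which removes class II from the surface, at 0.41 ± 0.108 (adjusted p = 0.0409), the X box factor Rfx5 at 0.19 ± 0.050 (adjusted p = 0.0374), and, lower, the lysosomal proteases Ctsb at -0.25 ± 0.058 and Ctsl at -0.22 ± 0.050 (adjusted p = 0.0297 and 0.0269). Of these 5, 0 were called without clone 1, without clone 2, without the OSKM library of clone 1 or without the clone block. Without clone 3 the number lower was 4, where 1626 of 19231 genes were lower. With B12 5 of the 19 were higher and 0 lower (median 0.043), beside 3.46% of all genes higher. They were Cd40 at 0.55 ± 0.12 (adjusted p = 0.0265), the costimulator Cd86 at 0.52 ± 0.122 (adjusted p = 0.0398), the invariant chain protease Ctss at 0.39 ± 0.081 (adjusted p = 0.0223), the endosomal protease Lgmn at 0.36 ± 0.064 (adjusted p = 0.00882), and Nfya, a subunit of the CCAAT-binding factor, at 0.14 ± 0.030 (adjusted p = 0.0282). Macrophages also express Ctss, Lgmn, Cd86 and Cd40, and 12 of 14 macrophage markers rose with B12 in the same comparison; their part in these values was not tested. Without clone 1 the B12 count was 2, and without clone 2, without clone 3 or without the clone block it was 0.

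On the interferon route to these genes 14 of 16 listed genes were tested. Ifng had 0 counts in all libraries, which allows up to 3 counts in each as the one-sided 95% limit, and Ifnb1 had 10 counts in all. With induction the kinase Jak2, which sits under the interferon-gamma receptor, was lower at -0.28 ± 0.069 (adjusted p = 0.0336) and no other gene passed (median -0.126). That is 1 of 14, near the background of 5.26% lower. The count was 7 with DESeq2 (1379 of 19174 genes lower), 7 without clone 3 (1626 of 19231) and 5 with no filter (1352 of 33090). With B12 the myeloid factor Irf8 alone was higher, at 0.44 ± 0.076 (adjusted p = 0.00761), beside 3.46% of all genes. Among 19 interferon-stimulated genes 2 were lower with induction, the GTPases Iigp1 at -0.34 ± 0.092 (adjusted p = 0.0429) and Gbp2 at -0.20 ± 0.049 (adjusted p = 0.0341), with a median of -0.171, beside 5.26% of all genes lower. The count was 0 with library totals, where 632 of 19174 genes were lower, 5 with DESeq2, 6 with no filter and 8 without clone 3. With B12 Oas1a alone of the 19 was called, at 0.30 ± 0.071 (adjusted p = 0.0405), and 68.8% of its 31-base words occur in other genes. In that averaged B12 comparison all 19 lay above 0 (median 0.133), where 44.9% of all tested genes did. The states differed: 19 of 19 lay above 0 in MEF (median 0.172, 44.5% of all genes) and 13 of 19 in OSKM (median 0.072, 47.7%). In the interaction 0 of the 19 lay above 0, where 51.3% of all genes did, and 0 were called. Without the OSKM library of clone 1 the averaged median was 0.07. Without clone 1, without clone 2, without the OSKM library of clone 1 or without the clone block, 0 genes of either interferon list were called with induction. The B12 calls on the interferon route were 1 without clone 1 and 0 without clone 2 or clone 3, and those of the interferon-stimulated list were 2 without clone 1, with DESeq2 or with no filter and 0 without clone 2 or clone 3. Without the clone block both B12 counts were 0.

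The genes most like each class were ranked over 11937 genes by their correlation with the mean scaled log2 level over the 12 libraries, which share clones and depth. Most like the mean of H2-K1, H2-D1, B2m and Tap1 was H2-Q4, another class I gene, with a Pearson r of 0.976 and 0.965 after subtraction of clone means. Slc38a7 (r = 0.970), Btbd11 (0.965), Orai2 (0.963) and Saraf (0.961) followed. Other genes hold 38.4% of the 31-base words of H2-Q4, 22.8% of those of H2-K1 and 26.7% of those of H2-D1. The part of shared reads in the H2-Q4 correlation was not tested. Most like the mean of the 4 class II genes was Ctnnbip1 (r = 0.941, and 0.886 after subtraction of clone means), then Eln, the elastin gene (0.882), Nosip (0.868), St3gal6 (0.863) and Tef (0.860). None of the 14 macrophage markers was among the 5 genes closest to the class II mean. With class II counts this low these correlations describe these libraries only.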

How the data were processed

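Strand-specific libraries were made from poly(A) RNA, 1 per clone and group. The authors aligned read pairs to mm10 (GRCm38), with STAR 2.5.2 per the submitters' processing notes, and counted them per gene with featureCounts. They deposited raw counts, 1 row per gene with 0 rows lacking an identifier, and used no molecular identifiers, so intervals cover counting error only. Symbols, exon lengths and shared 31-base words were taken from GENCODE M21, which matched 55480 of 55573 identifiers, and promoters from RefSeq on GRCm38.p6 (chromosome 18 not used here).

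Counts were fitted with edgeR 4.0.16 in R 4.3.3 (TMM, filterByExpr by group, clone and group as terms, 1 fit over 12 libraries), which left 19174 genes. Same-clone libraries correlated in their deviations over all 18 pairs (0.270 to 0.687), different clones by at most 0.170, and the labels give the clone. CPM used TMM-scaled totals, and log2 CPM a prior count of 2. DESeq2 1.42.0, other scalings and filters, no block, fits to the groups compared and omission of each clone or of the OSKM library of clone 1 were alternatives. All 10 genes are named, with up to 4 called genes of largest difference from each other list. Rfx5 and Nfya are named beyond this rule, after their values were seen. The members, lists and tests were chosen with earlier results of these data known. Fits were tested on simulated counts first.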

Additional observations from a re-analysis of the deposited data

Results flagged for a closer look

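Tap1 was singled out because its response to induction differed between clones by a test of the difference itself, the F test on the clone-by-state terms (edgeR, adjusted p = 0.0178). The difference without B12 was -0.55 in clone 1, -0.24 in clone 2 and -0.03 in clone 3 in log2 CPM, and with B12 it was -0.485, -0.285 and 0.01. Over the alternatives the adjusted p was 0.000343 to 0.0338, and it was 0.0105 without the OSKM library of clone 1. Clone 1 was also the clone whose titles show a later year, and the part of that in the difference cannot be told apart. Clone 3, with the smallest Tap1 difference, held the least of 3 induced factors in OSKM (Pou5f1 at 19.35, 18.48 and 2.86 CPM in clones 1, 2 and 3), and the same test called Myc (adjusted p = 0.000653) and Sox2 (adjusted p = 0.0156). The part of the factor levels in the Tap1 difference was not tested.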

How the results depend on the processing

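Of 727 values of single genes recomputed under the alternatives, 700 kept their side of the threshold, 18 no longer passed, 9 newly passed and 0 reversed. Within the 700, 43 changed sign while below the threshold in both fits. The number of the 10 genes lower with induction, 4 averaged over both B12 states, was 2 with library totals in place of TMM and 0 without the replicate block, and it ranged from 0 to 4 over fits that left out a clone or the OSKM library of clone 1 (0 without clone 1, without clone 2 and without that library, 4 without clone 3). Without B12 it was 0, and 2 with DESeq2 and with no filter. Leaving out 1 clone gave 0 to 4 without B12 and 0 to 1 with B12, the highest without clone 3. The clone test gave 1 gene, and 3 with DESeq2 and with no filter. All B12 and interaction counts stayed at 0 of the 10 in every alternative. The replicate block changed no other call of the 10 genes. Over all genes the averaged induction comparison called 1865 genes, 856 higher and 1009 lower, which became 1496 higher and 632 lower with library totals (median shift 0.0434 on the log2 scale) and 0 without the block. Without B12, DESeq2 called 487 genes where edgeR called 14. The cause of these changes was not tested. With at least 10 counts in every library, 9 of the 10 genes remained in the fit, without H2-Aa. Counts of 3 to 118 for the class II genes and Ciita limit what these libraries can show of them.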
